A study of Mus musculus with 4 samples.

Results

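The genes described here make, sense, take up, store and export cholesterol, 30 in all, chosen by symbol: 18 enzymes of the synthesis pathway, 5 regulators of the SREBP transcription factors, and 7 genes of uptake, storage and efflux. Of the 30, 29 had a row among the 22722 genes counted in each library. Hmgcs1, which makes HMG-CoA, appeared only as 2 copies of one symbol with 2 counts or fewer per library, and it was not tested. All 29 others had enough counts to be tested, among 11027 genes tested in all. The cells were MPC11, an immunoglobulin-secreting plasmacytoma line of the mouse. All 4 cultures carried a pLKO.1 lentiviral hairpin: 2 were transduced with one against GFP, which has no target in the mouse (shGFP, the control), and 2 with the hairpin shELL2-1C7 against Ell2, an elongation factor of RNA polymerase II (Ell2-KD). Cells were exposed to virus for 18 h, selected in puromycin for 72 h and then expanded for 72 h. Both groups therefore came from 1 line in medium with fetal bovine serum, and 1 hairpin sequence stood for the depletion. Replicates are labelled biological, but separate transduction is not stated, so p-values cover only the spread between these samples, which may be technical.

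Animal cells build cholesterol from acetyl-CoA through mevalonate and squalene, and they also import it in lipoproteins that are broken down in lysosomes. When sterol in the endoplasmic reticulum (ER) is low, SCAP carries the SREBP precursors to the Golgi, where they are cut, and the released factors switch on nearly every enzyme of the pathway. When sterol is high, INSIG proteins hold SCAP in the ER, surplus cholesterol is esterified by SOAT1, and the exporters ABCA1 and ABCG1 are induced by the oxysterol receptors LXR. Plasma cells hold a large ER, whose membranes have little cholesterol, next to a cholesterol-rich plasma membrane.

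Ell2 itself stood at 938 and 996 CPM in shGFP replicates 1 and 2 and at 87.8 and 115 CPM in Ell2-KD replicates 1 and 2, a 9.53-fold decrease (edgeR adjusted p = 0.00032). CPM are counts scaled to a common library size, after TMM normalisation, and the library totals were 8323915 and 5088789 counts in shGFP and 13914488 and 3496471 in Ell2-KD, so Ell2-KD replicate 2 was the shallowest. The 12 plasma cell markers looked for were detected in all 4 libraries. They summed to 22574 and 17548 CPM in shGFP and to 18130 and 14733 CPM in Ell2-KD. In both Ell2-KD libraries Sdc1, Prdm1, Irf4, Tnfrsf17, Mzb1, Jchain, Pou2af1 and Fkbp11 lay below both controls, as 18.5% of all genes tested did. Tnfrsf17 had 159 and 126 counts in shGFP and 18 and 1 in Ell2-KD. Cd38 lay above both controls, and Xbp1, Slamf7 and Creld2 overlapped. The smallest edgeR adjusted p was 0.18, for Tnfrsf17. The 5 hepatocyte genes summed to at most 1.98 CPM. Myeloid markers, 14 genes, summed to 18.1 and 19.1 CPM in shGFP and to 28.3 and 55.9 CPM in Ell2-KD, and 11 T and NK cell genes to between 5.60 and 14.6 CPM. Among 12 fibroblast and epithelial genes the sum was 451 to 641 CPM, nearly all of it from Epcam.

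No cholesterol gene passed the test in either direction. The quasi-likelihood test of edgeR, with p-values adjusted by Benjamini and Hochberg across every gene tested, called 5 of 11027 genes, or 0.0453% (0.00907% higher and 0.0363% lower). The smallest adjusted p among the members was 0.33, for Abca1. At an unadjusted p under 0.05, 4 members were lower (Pmvk, Insig2, Abca1 and Abcg1), where 3.26% of all genes were lower at that level, and 2 were higher (Lipa and Soat1), where 2.57% were. DESeq2 called 1 member, Abca1 (adjusted p = 0.0197), and 34 genes in all, or 0.207% of those with an adjusted p. The 2 libraries per group limit what could be detected: in counts simulated for this comparison on the 11027 genes, 3.98% of genes changed 2-fold and 45.3% of those changed 4-fold were called.

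Most members nevertheless lay on the lower side. Of the 29, 19 had a negative log2 change and 10 a positive one, with a median of -0.29, beside 50.1% negative and a median of -0.00 over all genes tested. Both Ell2-KD libraries lay below both controls for 15 members, where 18.5% of all genes did, and above both for 4, where 17.4% did. The median was -0.48 for 17 synthesis enzymes, -0.47 for 5 regulators and -0.26 for 7 uptake, storage and efflux genes. These are descriptions, not tests of the lists. In RNA of whole cultures, fewer cells with a transcript and less of it per cell cannot be told apart.

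**Figure D1:**
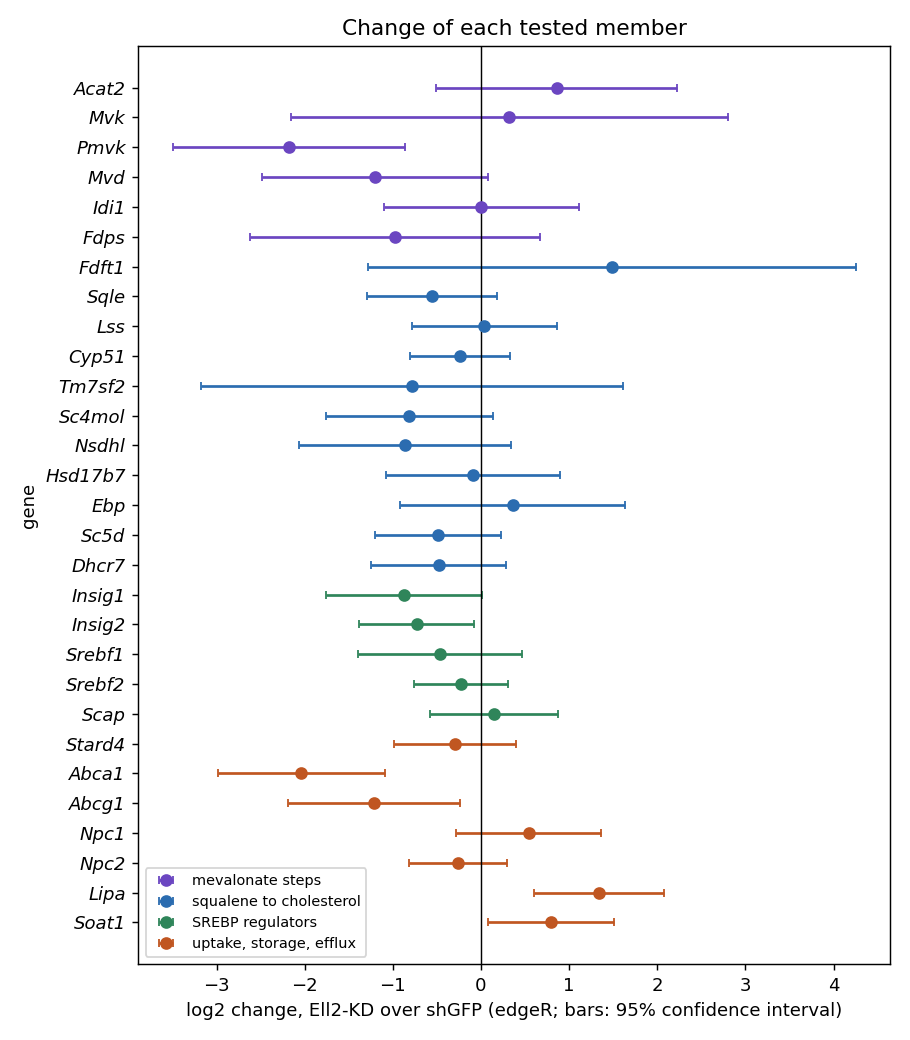
Log2 change of each of the 29 tested genes, Ell2-KD over shGFP, on the horizontal axis, with genes in pathway order on the vertical axis and bars for the edgeR 95% confidence interval, unadjusted, colored by role. Pmvk and Abca1 lie farthest to the left at -2.18 and -2.04. Farthest to the right lies Fdft1 at 1.49 (interval -1.28 to 4.26), followed by Lipa at 1.34, Acat2 at 0.86 and Soat1 at 0.80.

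Of the 30 genes, 24 matched by symbol in a table of RefSeq promoters of build GRCm38.p6, some with several start sites, giving 32 windows of the 250 bases before a start. In these windows the letters TCACNCCAC (a core of the sterol regulatory element, to which SREBPs bind), CCAAT (the box of NF-Y, a factor that works beside SREBP) and GGGCGG (the box of Sp1) were searched on both strands. No 2 motifs overlapped in any of these windows. TCACNCCAC was found in 1 of 32 windows, that of the untested Hmgcs1, and in 1.05% of all 32851 windows of the table. The 6 genes without a window, Fdps, Fdft1, Sqle, Stard4, Abcg1 and Npc1, were not searched, so these shares leave them out. CCAAT was found in 22 of the 32 (68.8%) and in 33.8% of all windows, and GGGCGG in 24 of the 32 (75%) and in 32.7%. By gene, 14 of 15 enzymes with a window held CCAAT in at least 1 of them. No such share by gene was taken over all genes, and the windows of the table were not limited to genes expressed here. A match is a run of letters and not a shown binding site. Only exact matches within the 250 bases were searched, so a window without TCACNCCAC does not show that the gene lacks a sterol regulatory element. The windows of 4 genes on which the results below turn are shown 5′ to 3′ on the gene's strand, with every CCAAT and GGGCGG, on either strand, in capitals (a minus-strand match reads ATTGG or CCGCCC). They are a synthesis enzyme, the sterol-responsive regulator Insig1, an exporter and a lysosomal lipase.
Pmvk, chr3:89454291-89454540, plus strand: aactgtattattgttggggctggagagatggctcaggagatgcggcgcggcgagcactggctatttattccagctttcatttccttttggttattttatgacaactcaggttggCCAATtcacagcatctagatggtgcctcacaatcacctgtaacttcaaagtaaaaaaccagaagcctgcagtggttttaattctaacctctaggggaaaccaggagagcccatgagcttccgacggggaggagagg
Insig1, chr5:28071162-28071411, plus strand: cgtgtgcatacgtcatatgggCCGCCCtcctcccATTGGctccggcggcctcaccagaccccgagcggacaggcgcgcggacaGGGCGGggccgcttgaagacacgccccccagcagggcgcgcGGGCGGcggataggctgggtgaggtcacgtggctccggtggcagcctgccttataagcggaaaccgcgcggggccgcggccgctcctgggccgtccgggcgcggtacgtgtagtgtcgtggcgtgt
Abca1, chr4:53159896-53160145, minus strand: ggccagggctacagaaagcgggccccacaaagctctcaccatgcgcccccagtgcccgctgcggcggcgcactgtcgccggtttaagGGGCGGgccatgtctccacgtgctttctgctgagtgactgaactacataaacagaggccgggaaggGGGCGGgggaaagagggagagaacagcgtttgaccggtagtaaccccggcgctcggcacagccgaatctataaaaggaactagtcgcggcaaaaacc
Lipa, chr19:34527475-34527724, minus strand: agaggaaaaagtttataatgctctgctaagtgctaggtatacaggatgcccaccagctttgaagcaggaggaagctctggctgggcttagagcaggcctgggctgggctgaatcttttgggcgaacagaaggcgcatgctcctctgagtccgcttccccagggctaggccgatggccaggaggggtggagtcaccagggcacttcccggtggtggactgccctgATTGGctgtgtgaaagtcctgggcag
Pmvk held 1 CCAAT, at -136 to -132 from its start, and was the enzyme of the 15 with no GGGCGG. That window is of the first of its 2 start sites in the table; the window of the second, not shown, held none of the 3 motifs. Insig1 held 3 GGGCGG and 1 CCAAT, Abca1 held 2 GGGCGG and no CCAAT, and Lipa held 1 CCAAT, at -26 to -22.

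The early steps from acetyl-CoA to farnesyl diphosphate were split, with 3 genes lower and 3 higher among the 6 tested, and none passed. Pmvk, the phosphomevalonate kinase, stood at 23.6 and 22.6 CPM in shGFP and 3.97 and 6.44 CPM after depletion, from 198, 114, 56 and 22 counts. The groups were far apart for this gene, and its log2 change of -2.18 ± 0.60 (SE; edgeR adjusted p = 0.54) was the most negative of all 29. It passed only when Ell2-KD replicate 2 was left out (log2 change -2.53, adjusted p = 0.0473). Over 10 alternatives its adjusted p ran from 0.0473 to 0.9999.

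Mvd, the decarboxylase that follows Pmvk, showed the same order of groups. Its levels were 22.5 and 18.5 CPM in shGFP and 6.46 and 11.7 CPM in Ell2-KD. The log2 change was -1.20 with an SE of 0.58 (edgeR adjusted p = 0.87). Both depleted libraries were below both controls. Fdps, which makes farnesyl diphosphate, the branch point toward sterols and prenylated proteins, was low in 1 library only: 26.5 and 28.2 CPM in the controls, 23.6 CPM in Ell2-KD replicate 1 and 3.22 CPM, from 11 counts, in Ell2-KD replicate 2. Without Ell2-KD replicate 1 its log2 change was -3.07 (edgeR adjusted p = 0.0081), and without Ell2-KD replicate 2 it was -0.20. Its exons overlap those of another coding gene model, so its counts are uncertain.

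The remaining early enzymes leaned the other way or nowhere. Acat2, the thiolase that opens the pathway, stood at 7.51 and 9.72 CPM in shGFP and 19.3 and 11.7 CPM in Ell2-KD, both above the controls (log2 change 0.86 ± 0.62 SE, edgeR adjusted p = 0.94). Mvk, the mevalonate kinase, was scarce at 3.58, 2.78, 4.97 and 2.93 CPM in the same order. Idi1, the isomerase of isopentenyl diphosphate, stood at 18.2 and 26.2 CPM in shGFP and 28.9 and 15.2 CPM after depletion, so the groups overlapped, with a log2 change of 0.01 whose 95% interval ran from -1.10 to 1.11. Pmvk and Mvd were thus lower in both depleted libraries, while Mvk overlapped between groups. Mvk had only 30 and 14 counts in shGFP and 70 and 10 in Ell2-KD. Its log2 change of 0.32 had a 95% interval from -2.15 to 2.80, and a difference between these steps was not tested.

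**Figure D2:**
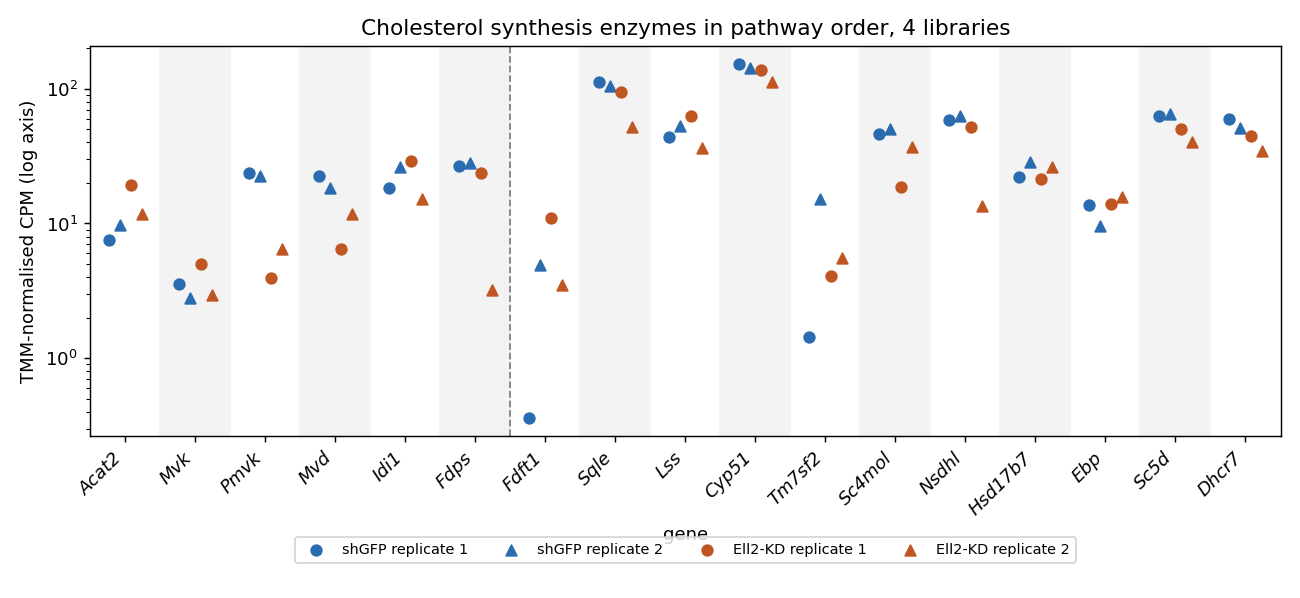
TMM-normalised CPM (log axis) of 17 synthesis enzymes in each of the 4 libraries, blue for shGFP and orange for Ell2-KD, circles for replicate 1 and triangles for replicate 2, with the dashed line dividing the steps up to Fdps from those after it. For Fdps and Nsdhl the Ell2-KD replicate 2 triangle stands far below the other 3 points, while for Pmvk both orange points lie below both blue ones.

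From squalene onward, 8 of 11 enzymes had a negative log2 change (median -0.48), and for 6 of the 11 both depleted libraries lay below both controls, where 18.5% of all genes did. Sqle, the squalene epoxidase and a control point of the pathway, stood at 112 and 104 CPM in shGFP and 94.6 and 51.8 CPM in Ell2-KD (log2 change -0.55 ± 0.33 SE, edgeR adjusted p = 0.91). Cyp51, which demethylates lanosterol, stood at 153 and 142 CPM against 139 and 112 CPM. Per kilobase of exon these were the most abundant synthesis enzymes in the controls, at 39.2 (Sqle) and 37.6 (Cyp51) CPM per kb, and both were lowest in Ell2-KD replicate 2.

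Nsdhl, a sterol dehydrogenase that removes methyl carbons from the ring, repeated the pattern of Fdps. It stood at 58.5 and 62.7 CPM in the controls, 52.1 CPM in Ell2-KD replicate 1 and 13.5 CPM, from 46 counts, in Ell2-KD replicate 2. The log2 change was -0.86 ± 0.54 (SE; edgeR adjusted p = 0.91). It was -2.17 without Ell2-KD replicate 1 (edgeR adjusted p = 0.0083) and -0.21 without Ell2-KD replicate 2. Sc4mol (now Msmo1), the methylsterol oxidase that acts just before it, was lowest in the other depleted library, at 46.4 and 50.4 CPM in shGFP and 18.6 and 37.2 CPM in Ell2-KD (log2 change -0.81 ± 0.43 SE). For each of Nsdhl and Sc4mol both depleted libraries lay below both controls, and only the lowest library differed.

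The last 2 enzymes were lower by smaller amounts in both depleted libraries. Sc5d, the lathosterol desaturase, stood at 63.1 and 64.5 CPM in shGFP and 50.4 and 40.4 CPM in Ell2-KD. Dhcr7, the reductase that yields cholesterol, stood at 59.3 and 51.0 CPM against 44.3 and 34.5 CPM. Their log2 changes were -0.49 ± 0.33 and -0.48 ± 0.35 (SE), and the 95% intervals, -1.20 to 0.23 and -1.25 to 0.29, include no change.

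In the 5 other late enzymes the direction was unsettled. Lss, the cyclase that makes lanosterol, stood at 44.1 and 53.2 CPM in shGFP and 62.6 and 36.6 CPM in Ell2-KD, and Hsd17b7, a sterol ketone reductase, at 22.1 and 28.6 against 21.4 and 26.3 CPM. Ebp, the sterol isomerase, was the one late enzyme above both controls in both depleted libraries, at 13.6 and 9.53 against 14.0 and 15.8 CPM (log2 change 0.36 ± 0.58 SE). Fdft1, the squalene synthase, had 3 and 25 counts in shGFP and 154 and 12 after depletion. Tm7sf2, a sterol reductase, had 12 and 76 counts against 57 and 19. For both genes the 2 controls differed from each other by more than the groups did, and both overlap exons of a coding neighbour, Ctsb and Vps51. Summed over the 17 enzymes, the levels were 676 and 694 CPM in shGFP and 599 and 428 CPM in Ell2-KD.

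Of the 5 SREBP regulators, 4 had a negative change, with Ell2-KD replicate 2 the lowest library for each of the 4, and none passed. Insig1, which retains SCAP in the ER and is itself an SREBP target, stood at 159 and 137 CPM in shGFP and 115 and 44.5 CPM in Ell2-KD (log2 change -0.88 ± 0.40 SE, edgeR adjusted p = 0.85). Without Ell2-KD replicate 1 it was -1.73 (edgeR adjusted p = 0.0058) and without Ell2-KD replicate 2 it was -0.35. The groups did not overlap, but most of the difference came from 1 library.

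Insig2, the second INSIG gene, was lower by a like amount in both depleted libraries: 97.2 and 81.8 CPM in the controls, 56.7 and 50.9 CPM after depletion. Its log2 change was -0.73 ± 0.30 (SE; edgeR adjusted p = 0.81), and it lay between -0.85 and -0.59 with any 1 library left out. Srebf1, the SREBP gene tied more to fatty acid synthesis, varied between controls, at 199.9 and 131 CPM, and stood at 169 and 69.1 CPM in Ell2-KD, so the groups overlapped. Srebf2, the SREBP gene tied more to cholesterol, stood at 179.7 and 168 against 161 and 136 CPM (log2 change -0.23, 95% interval -0.76 to 0.31). Scap, the escort, stood at 46.6 and 51.0 against 50.01 and 58.3 CPM (log2 change 0.15, 95% interval -0.58 to 0.88). Without Ell2-KD replicate 2 the median of the 5 regulators was -0.11, and without Ell2-KD replicate 1 it was -0.81.

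**Figure D3:**
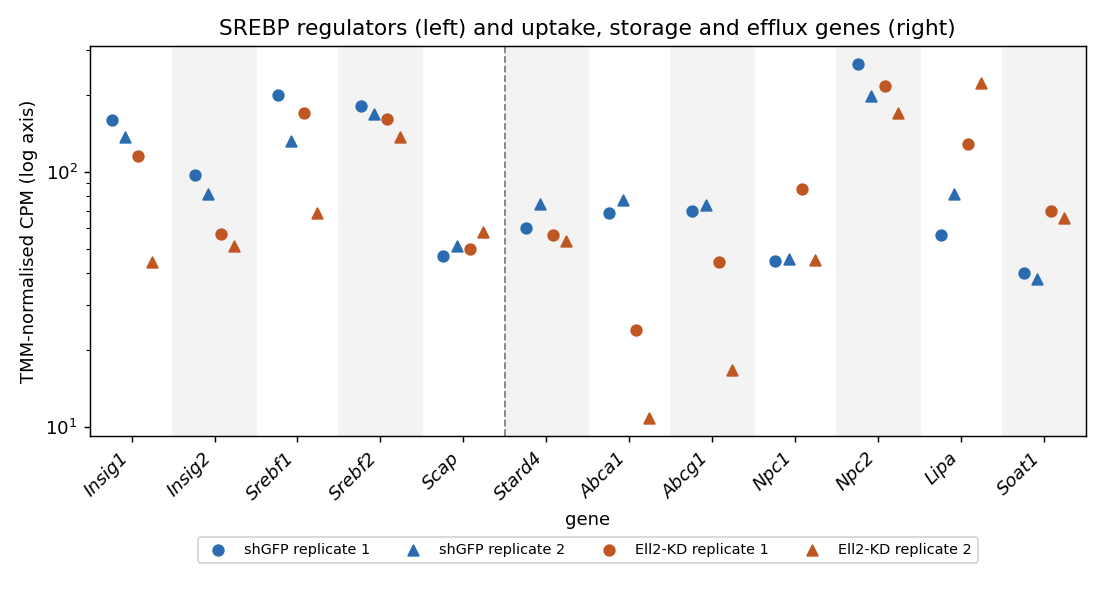
TMM-normalised CPM (log axis) of 5 SREBP regulators, left of the dashed line, and 7 genes of uptake, storage and efflux in each of the 4 libraries, with blue for shGFP, orange for Ell2-KD, circles for replicate 1 and triangles for replicate 2. Both orange points lie below both blue ones for Abca1 and Abcg1 and above both for Lipa and Soat1.

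Among the 7 genes of uptake, storage and efflux, the 2 exporters were lower and the lysosomal lipase and the ester-forming enzyme were higher in both depleted libraries, none past the test. Abca1, which moves cholesterol from the plasma membrane to apolipoproteins, stood at 68.9 and 77.6 CPM in shGFP and 24.1 and 10.8 CPM in Ell2-KD, from 578, 391, 340 and 37 counts. Its log2 change was -2.04 ± 0.43 (SE; edgeR adjusted p = 0.33), 4.10-fold lower, with a 95% interval of -2.99 to -1.08. The groups were well apart, and the log2 change lay between -2.75 and -1.59 with any 1 library left out. Its adjusted p over 10 alternatives ran from 0.00025 (without Ell2-KD replicate 1) to 0.38; it also passed with no filter on low counts (0.0352) and in DESeq2 (0.0197).

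Abcg1, the partner exporter that hands cholesterol to lipoprotein particles, went the same way with a smaller difference. It stood at 70.1 and 74.2 CPM in shGFP and 44.5 and 16.7 CPM after depletion (log2 change -1.21 ± 0.44 SE, edgeR adjusted p = 0.75). Without Ell2-KD replicate 1 it was -2.11 (edgeR adjusted p = 0.0075) and without Ell2-KD replicate 2 it was -0.69. Of the LXR genes themselves, Nr1h2 stood at 16.1 and 17.3 CPM in shGFP and 34.1 and 25.8 CPM in Ell2-KD without passing (edgeR adjusted p = 0.87), and Nr1h3 had too few counts to be tested. Mylip, an LXR target that marks lipoprotein receptors for degradation, had 73 and 42 counts in shGFP and 49 and 4 after depletion (log2 change -1.81 ± 1.00 SE, edgeR adjusted p = 0.89). Nr1h2, Nr1h3 and Mylip were singled out after their values were seen.

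Lipa, the lysosomal acid lipase that frees cholesterol from imported esters, was higher in both depleted libraries. It stood at 56.4 and 81.4 CPM in shGFP and 128 and 221 CPM in Ell2-KD, from 473, 410, 1802 and 756 counts (log2 change 1.34 ± 0.33 SE, 2.53-fold, edgeR adjusted p = 0.48). Only that of Fdft1 was more positive, at 1.49 ± 1.26 (SE). The log2 change was 0.90 to 1.69 with any 1 library left out, and it passed in 2 of 10 alternatives: without Ell2-KD replicate 1 (edgeR adjusted p = 0.00066) and with the replicate number as a block (0.0413). Over the 10 the adjusted p ran from 0.00066 to 0.78. Soat1, which esterifies cholesterol in the ER for storage, stood at 40.3 and 37.9 CPM against 70.01 and 65.9 CPM (log2 change 0.80 ± 0.32 SE, edgeR adjusted p = 0.81). Its replicates were close to each other in both groups, and its log2 change stayed between 0.75 and 0.85 with any 1 library left out. Macrophages also express Lipa and Soat1, and the summed myeloid markers given above were higher in the depleted cells too. Of these 14 markers, 4 had enough counts to be tested and none passed. C1qb, at 36 and 28 counts in shGFP and 207 and 38 in Ell2-KD, and Mpeg1, at 3 and 13 against 65 and 23, were above both controls in CPM in both depleted libraries. Cd68, at 97 and 31 against 51 and 108 counts, and Itgam, at 8 and 9 against 47 and 6, overlapped between groups in CPM. Cd68 alone gave 31.6 of the summed 55.9 CPM in Ell2-KD replicate 2, and it stood at 3.62 CPM in Ell2-KD replicate 1. The 10 untested markers, among them Csf1r and Lyz2, had at most 11 counts in any library. Their part in the result was not tested.

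The other 3 genes of this group, Npc1, Npc2 and Stard4, showed smaller or less even differences. Npc1, the membrane protein that passes cholesterol out of lysosomes, stood at 44.7 and 45.4 CPM in shGFP, 85.6 CPM in Ell2-KD replicate 1 and 45.1 CPM in Ell2-KD replicate 2, so only 1 depleted library was high. Npc2, its soluble partner and per kilobase the most abundant member in the controls (70.0 CPM per kb), stood at 264 and 197 CPM against 215 and 169 CPM, with overlapping groups. Stard4, a cytosolic sterol carrier, stood at 60.2 and 74.6 CPM against 56.3 and 53.6 CPM (log2 change -0.29 ± 0.31 SE). Summed over the 7 genes, which held members on both sides, the levels were 605 and 589 CPM in shGFP and 624 and 583 CPM in Ell2-KD, so the sums of the groups overlapped.

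Each depleted library was also set against the same controls on its own. Measured against the mean of both controls on the log2 CPM scale, 8 of 29 members were more than 1 unit lower in Ell2-KD replicate 2 (Pmvk, Fdps, Sqle, Nsdhl, Insig1, Srebf1, Abca1 and Abcg1), where 12.1% of all genes were. In Ell2-KD replicate 1, 4 members were (Pmvk, Mvd, Sc4mol and Abca1), where 10.8% of all genes were. The values are log2 CPM differences of -2.47 and -1.80 for Pmvk and -1.59 and -2.73 for Abca1, in Ell2-KD replicates 1 and 2. Ell2-KD replicate 2 was the lowest of the 4 libraries for 16 of 29 members, where it was so for 29.7% of all genes. It was also the shallowest library, and the part of depth in these values was not tested.

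**Figure D4:**
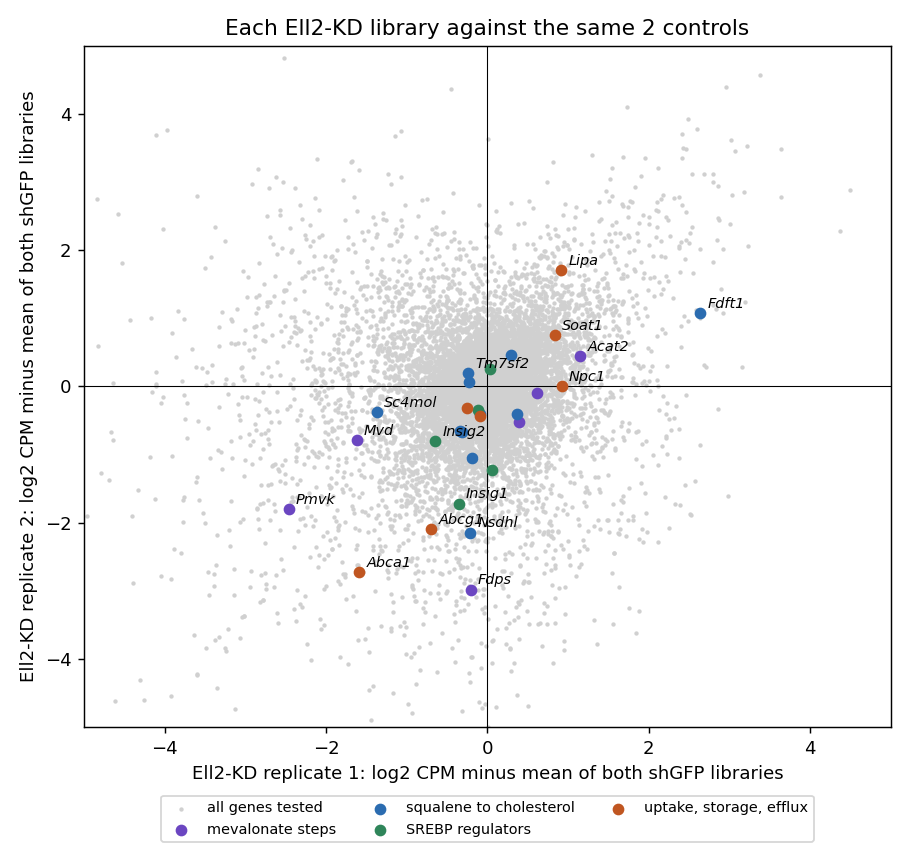
Log2 CPM of each gene in Ell2-KD replicate 1 (horizontal axis) and Ell2-KD replicate 2 (vertical axis), each minus the mean of both shGFP libraries, with cholesterol genes colored by role and all tested genes in grey, except 8 that lie beyond the axes' limit of 5. Both axes use the same controls. Fdps and Nsdhl are low on the vertical axis alone, Mvd and Sc4mol are lower on the horizontal one, and Pmvk and Abca1 are low on both.

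Leaving out single libraries changed how many members passed. Without Ell2-KD replicate 1, 6 of 29 passed (Abca1, Abcg1, Fdps, Insig1 and Nsdhl, all lower, and Lipa, higher), where 142 of 11448 genes did (1.24%). Without Ell2-KD replicate 2, Pmvk alone passed, where 0.688% of genes did, and no member passed without shGFP replicate 1 (0.122% of genes) or without shGFP replicate 2 (0.187%). In the first 2 fits a lone Ell2-KD library was assumed to vary as the controls did.

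Genes around the pathway were looked at in 3 further lists, and no member of any list passed. In the isoprenoid branch, which makes prenyl groups and dolichol, 13 genes were tested, 8 negative and 5 positive, with a median of -0.12. The 2 with the smallest p, Fnta and Fntb, encode the subunits of farnesyltransferase and lay on opposite sides, at 0.62 ± 0.40 and -0.86 ± 0.63 (log2 change, SE). Among 13 tested genes of sterol sensing and SREBP processing, 5 were negative and 8 positive, with a median of 0.09. Sec23a, a subunit of the COPII coat of vesicles that leave the ER, stood at 202 and 156 CPM in shGFP and 100.4 and 106 CPM in Ell2-KD (edgeR adjusted p = 0.68), and Mbtps1, the first protease that cuts SREBPs, at 203 and 226 against 271 and 333 CPM (0.86). Among 24 tested genes of sterol transport, esters and other uptake, 15 were negative and 9 positive, with a median of -0.11. Osbpl5, an oxysterol-binding protein, had 67 and 36 counts in shGFP and 3 and 3 after depletion (edgeR adjusted p = 0.70), and its relative Osbpl8 stood at 207 and 153 against 316 and 261 CPM (0.75).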

How the data were processed

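Total RNA of 4 MPC11 cultures, 2 per group, was sequenced by SOLiD RNA-seq, as stated in the labels. The authors deposited raw read counts per gene symbol, 1 table per library, per the file headers, and the values are whole numbers with different totals. The submitters' processing notes name HTSeq 0.5.3, SAMtools 0.1.11, DESeq 1.4.1 and build mm9; of the aligner, annotation and strand setting, none is given in the sources used here. Of the entries, 1039 carry a suffix for a repeated symbol, 1000 of them with 0 counts in all 4 libraries, and Hmgcs1 is among the repeated symbols. Reads of overlapping genes cannot be told apart here: 10 of the 30 members overlap an exon of another gene in GENCODE M21 and 6 of these a coding gene (Fdps, Fdft1, Cyp51, Tm7sf2, Srebf1 and Npc1). The strand setting is not known. For Fdps and Tm7sf2 the coding neighbour lies on the same strand, so a known setting would not separate them either.

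The test was edgeR 4.0.16 in R 4.3.3 (filterByExpr with a minimum count of 10 and a minimum total of 15, TMM, robust glmQLFit, glmQLFTest, two-sided, group as the only term), with Benjamini-Hochberg adjustment over all 11027 genes and a threshold of 0.05. The SE is the log2 change divided by the square root of F. Per-library log2 CPM used a prior count of 2. The common biological coefficient of variation was 0.43. Exon lengths came from the GENCODE M21 basic set of build GRCm38, which differs from that of the counts. Alternatives were other scalings, filters, DESeq2 1.42.0, a replicate block and leaving out each library. Members, roles and lists were chosen with earlier results of these data known. All members are named; of each further list the 2 genes with the smallest p are named. Promoters were to be shown for tested enzymes with TCACNCCAC, of which there were none, and for Pmvk; those of Insig1, Abca1 and Lipa were added after their values were seen. In simulated counts 10 of 31223 unchanged genes were called.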

Additional observations from a re-analysis of the deposited data

How the results depend on the processing

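Fold changes of about 2-fold were mostly below what 2 libraries per group could detect. The number of genes called, 5 as reported, was 2 with library totals, 22 with no filter, 34 in DESeq2 and 28 with the replicate block, and 14 to 142 with 1 library left out. The number of members called, 0 as reported, was 1 with no filter (Abca1), 1 in DESeq2 (Abca1) and 1 with the replicate block (Lipa, edgeR adjusted p = 0.0413), and 0 to 6 with 1 library left out. With 1 library left out the medians ran from -0.54 to -0.20 for synthesis enzymes, from -0.81 to -0.11 for regulators and from -0.33 to -0.025 for uptake, storage and efflux genes, and the synthesis median was -0.25 with the block. Of 287 values of single members under these alternatives, 11 reversed, in 6 members. Idi1 was -0.0037 with a minimum count of 50, -0.033 with the replicate block and -0.54 to 0.39 with 1 library left out. Ranges with 1 library left out were -0.12 to 0.64 for Mvk, -0.41 to 0.37 for Lss, -1.65 to 1.73 for Tm7sf2, -0.25 to 0.11 for Hsd17b7 and -1.26 to 0.038 for Srebf1. The cause was not tested. Replicate numbers are not stated to mark a shared batch. Deviations of same-numbered libraries from their group means had r = 0.31 across genes, which are not independent replicates.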
